A study of Mus musculus with 6 samples.

Results

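The cytosolic ribosome is built from a small 40S subunit and a large 60S subunit, each made of ribosomal RNA and a set of ribosomal proteins that are mostly needed in equal numbers. Ribosomal protein mRNAs are among the most abundant transcripts of growing cells, and most begin with a run of pyrimidines at the cap, the 5′ terminal oligopyrimidine (TOP) tract, through which their translation is controlled together. In spermatogenesis, the genes on the X chromosome are silenced during meiosis, and autosomal copies of several ribosomal protein genes are expressed in the testis. The genes described here are those whose deposited symbol is that of a cytosolic ribosomal protein, Rpl or Rps followed by a number, together with Rplp0, Rplp1, Rplp2, Rpsa and Rps27l. The testis paralogs Rpl10l and Rpl39l were kept apart. This gave 76 of the 7210 genes in the count table, 31 of the 40S and 45 of the 60S subunit, represented by 157 contigs, of which 131 are annotated as protein coding.

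The study compared poly(A) tails during spermatogenesis by nanopore direct RNA sequencing, in which each read is a native RNA molecule that carries its own tail. Pachytene/diplotene (P/D) spermatocytes, which are in meiotic prophase, and round spermatids (RS), which have completed meiosis, were sorted with Hoechst and propidium iodide from testes of adult C57BL/6J/B6 males, for which no transgene or treatment is given. There were 3 samples of each cell type, each a pool from 3 mice, and the P/D and RS samples formed separate barcoded libraries, so that cell type and library cannot be told apart. By the study's microscopy, a large share of the cells in the P/D gate were of other types, whereas most cells in the RS gate were RS. The part of this in the P/D values was not tested. P/D cells and RS were taken from the same animals, but the sources do not say which P/D and RS pools match.

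Each sample had 244004 to 474688 reads, of which 11506 to 18107 lay on ribosomal protein genes. Round spermatid markers such as Acrv1 and Acr had 89 to 127 reads in P/D and 645 to 1004 reads in RS samples, summed over 5 genes, and spermatocyte markers such as Sycp1 and Sycp3 had 382 to 488 and 147 to 258 reads over 7 genes. Elongating spermatid markers were present in P/D samples too, with 442 to 555 reads over 6 genes against 6605 to 12251 in RS. Of 6 Sertoli, 5 Leydig and 6 spermatogonia markers, 2, 3 and 1 were in the table, with at most 7 reads per list in a sample, and no peritubular, macrophage or erythroid marker was found in it. Fewer cells that make a transcript and less of it per cell cannot be told apart in such bulk samples.

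The start sites of some of the genes that follow are given first, because they show the TOP tract that most ribosomal protein mRNAs share. The sequences are from RefSeq (GRCm38.p6), run 5′ to 3′ on the strand of the gene, and hold 15 bases before the annotated first base and 15 from it onward. Capitals mark a C followed by at least 4 bases that are C or T, where this C lies within 5 bases of the annotated first base. In Rpl35 and Rpl14 the unbroken run of C and T begins further upstream than the capitals. Rps6 and Rpl35 are shown for large tail increases of a 40S and a 60S gene, Rps27 for the smallest 40S increase, and Rpl14 and Rpl15 for large decreases in reads.
Rps6, chr4:86857353-86857382, minus strand: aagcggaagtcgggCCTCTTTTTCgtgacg
Rpl35, chr2:39005117-39005146, minus strand: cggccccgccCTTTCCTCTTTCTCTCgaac
Rps27, chr3:90213634-90213663, minus strand: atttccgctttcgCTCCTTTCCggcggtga
Rpl14, chr9:120571502-120571531, plus strand: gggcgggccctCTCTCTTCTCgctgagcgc
Rpl15, chr14:18270972-18271001, minus strand: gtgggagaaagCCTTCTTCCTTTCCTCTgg

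Rpl4 had the largest tail increase of all and Rps3 the second largest 40S decrease in reads. Neither has such a C within 5 bases of the annotated first base. The Rpl4 window does hold a run of C and T further upstream.
Rpl4, chr9:64173372-64173401, plus strand: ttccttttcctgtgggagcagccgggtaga
Rps3, chr7:99483695-99483724, minus strand: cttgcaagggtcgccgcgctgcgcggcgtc

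A start was listed for 56 of the 76 genes, and the tract was found at 28 of these (50.0%), against 19.7% of the 27025 genes in the table. On the opposite strand the same search gave 16.1% of ribosomal protein genes and 22.8% of all genes. The 27 tested genes with a tract had a median log2 fold change in reads of -0.61 and a median tail difference of 51.6 nt between RS and P/D. For the 27 tested genes without one these medians were -0.76 and 55.4 nt, and no test was made between them. Annotated starts can lie some bases away from the true cap site. A missing match says only that no such C was found within 5 bases of the annotated start.

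Ribosomal protein transcripts took a smaller share of the reads in RS than in P/D spermatocytes. They made up 6.47%, 5.87% and 6.67% of reads in P/D and 3.63%, 3.56% and 3.83% in RS, or 6.34% ± 0.418 against 3.67% ± 0.143 (SD, n = 3 each). The ranges were far apart, with the P/D mean 1.72 times the RS mean. Both subunits had lower shares in RS. The 40S share went from 2.56% ± 0.185 to 1.49% ± 0.0492 and the 60S share from 3.78% ± 0.236 to 2.18% ± 0.0953 (SD, n = 3 each). The ratio of 60S to 40S reads was 1.502, 1.49 and 1.45 in P/D and 1.44, 1.46 and 1.48 in RS, and these ranges overlapped. No test was made on these sums, since the genes were chosen with earlier results known.

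**Figure D1:**
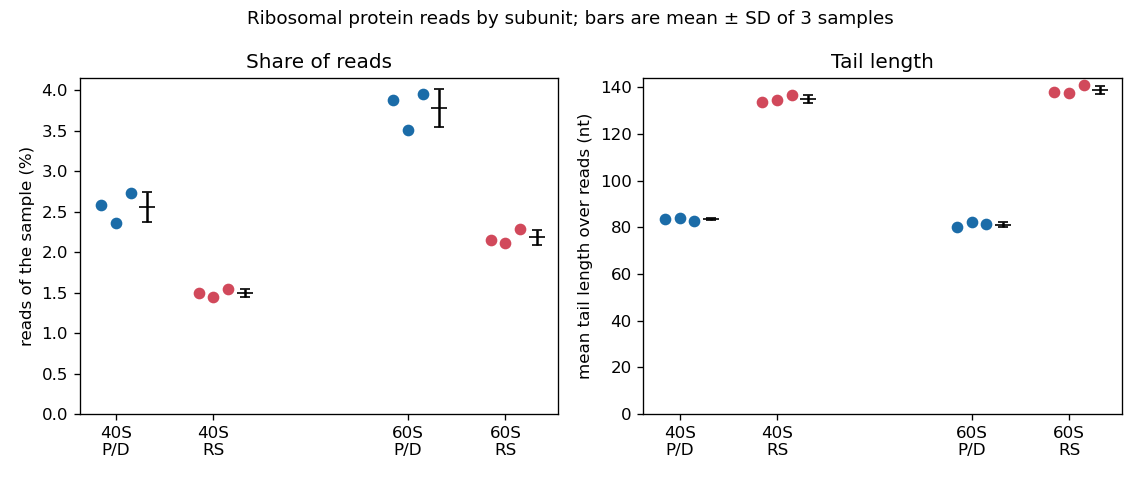
Left, share of all reads of a sample (%) on 40S and 60S ribosomal protein genes; right, mean poly(A) tail length (nt) over those reads. Points are the 3 P/D (blue) and 3 RS (red) samples, and bars give mean ± SD; both subunits have a lower share and longer tails in RS, from 83.4 to 134.9 nt for 40S and from 81.1 to 138.6 nt for 60S reads.

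Gene by gene, the decrease was broad. Levels and decreases given here are relative to the other reads of a sample, and amounts per cell were not measured. Of the 74 ribosomal protein genes that passed the count filter, 70 had significantly fewer reads in RS (edgeR's quasi-likelihood test, threshold 0.05 after Benjamini-Hochberg adjustment over the 4940 genes tested), where 32.6% of all genes tested did. None was higher, against 33.9% of all genes. At an unadjusted p below 0.05, and with DESeq2, the number of higher genes was 0 as well. The decreases comprised 29 of 31 genes of the 40S and 41 of 43 of the 60S subunit. The median log2 fold change was -0.70 for 40S and -0.72 for 60S genes, and -0.03 over all genes tested. In 67 of the 74 genes every RS sample lay below every P/D sample in normalised read count (CPM, scaled to TMM-adjusted library size). This held for 34.3% of all genes. Most decreases were moderate, and 15 genes fell to no more than 1/2 of their P/D level. Replicates had a median coefficient of variation of 10.02% in P/D and 7.89% in RS over the 74 genes.

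**Figure D2:**
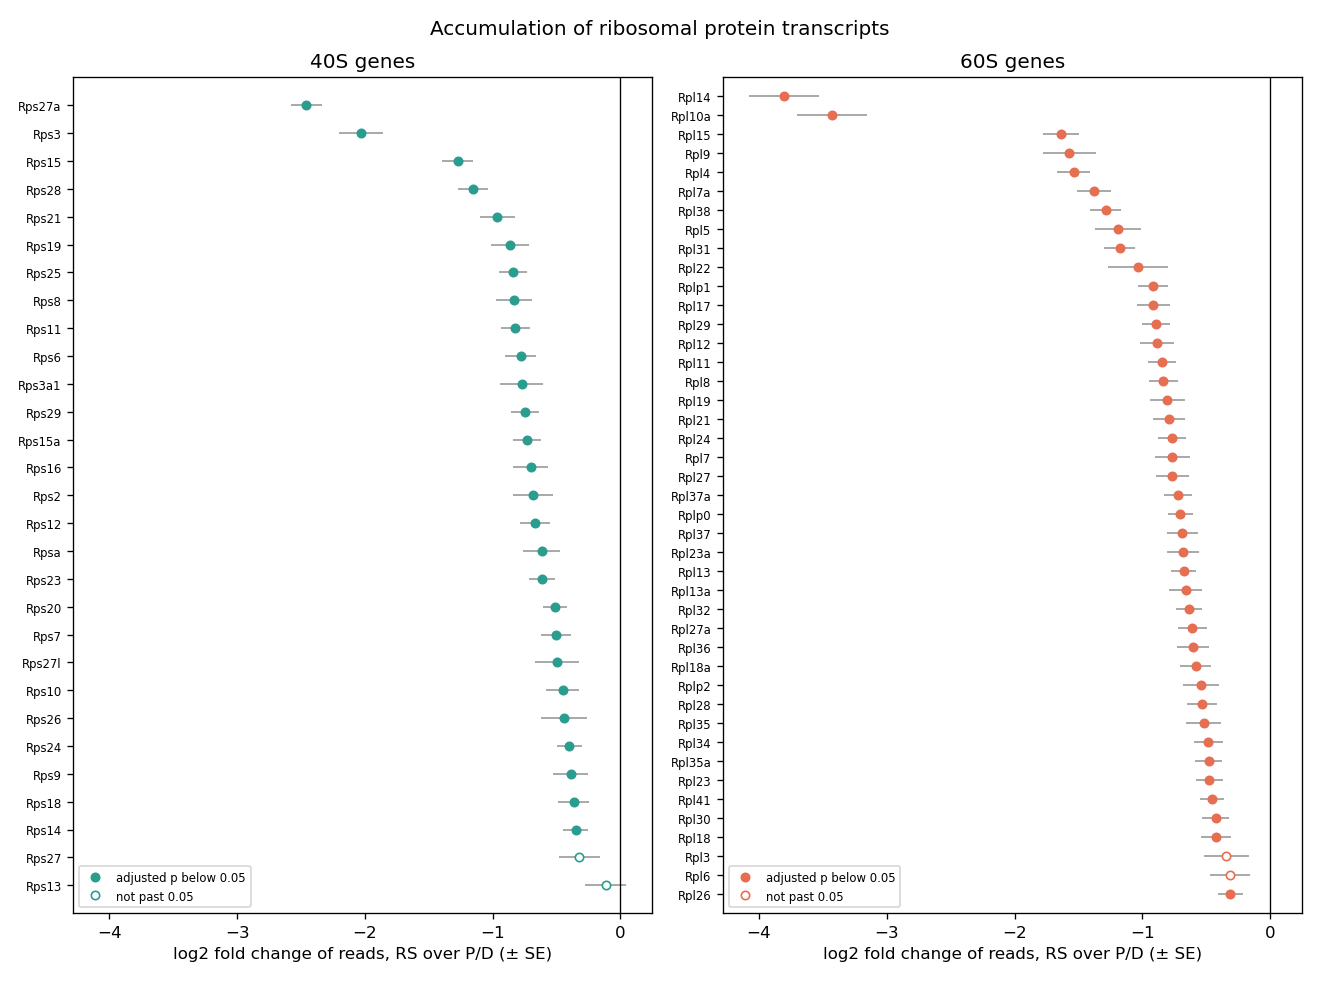
Log2 fold change of reads in RS over P/D spermatocytes for 72 of the 74 tested genes, 40S (left) and 60S (right), with standard errors. Filled points passed an adjusted p of 0.05 and open points did not; all estimates drawn lie below 0, from -3.80 for Rpl14 to -0.11 for Rps13.

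Some genes fell much further than the rest. Rpl14 and Rpl10a, both encoding 60S proteins, had few reads left in RS. Rpl14 (chromosome 9, 120571444 to 120574654, plus strand, 6 exons) had 56, 79 and 99 reads in P/D and 9, 9 and 4 in RS. Its level was 291 ± 78.4 CPM in P/D and 20.8 ± 8.83 in RS, 13.9-fold lower (log2 fold change -3.80, SE 0.28, adjusted p = 1.57e-18, edgeR). Rpl10a (chromosome 17, 28328471 to 28331033) went from 54, 58 and 68 to 7, 10 and 5 reads, 10.8-fold lower (adjusted p = 1.11e-16, edgeR). Neither gene had 20 reads in every sample, and both were named after their values were seen. Among genes with that depth the deepest 40S decrease was that of Rps27a, which encodes a fusion of ubiquitin and a 40S protein. It had 1328, 1273 and 1389 CPM in P/D and 265, 220 and 245 in RS, 5.50-fold lower (log2 fold change -2.46, SE 0.12, adjusted p = 1.89e-25, edgeR). Rps3, a 40S protein at the mRNA entry channel that also takes part in DNA repair, followed with 385, 471 and 489 against 119, 119 and 88.6 CPM, 4.09-fold lower (adjusted p = 7.84e-16, edgeR). For these 4 genes the groups of samples were far apart.

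Next in size among 40S genes was Rps15, part of the 40S head, with a log2 fold change of -1.27. Among 60S genes, Rpl15, Rpl9, Rpl4 and Rpl7a had values of -1.64, -1.57, -1.54 and -1.38. Rpl4 had 725, 809 and 873 CPM in P/D and 285, 301 and 238 in RS. Rpl15 had 980, 684 and 993 CPM in P/D and 299, 234 and 327 in RS. Rpl9 was uneven among the P/D samples, at 419, 216 and 577 CPM, and its processed copy Rpl9-ps6 had 549, 635 and 523 CPM there. The copy had 156, 207 and 107 CPM in RS and fell too (log2 fold change -1.83, adjusted p = 4.38e-15, edgeR). Rpl9 kept its call when reads of pseudogenes and retrocopies were added to their parents. Whether reads were divided between these near-identical sequences was not tested, and the values of Rpl9 by itself are uncertain. Rpl5 and Rpl11, which with 5S ribosomal RNA form the particle that can bind Mdm2, both fell, with log2 fold changes of -1.19 (SE 0.18) and -0.85 (SE 0.11).

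At the other end, the smallest significant decreases of the 40S genes were those of Rps14 (-0.35), Rps18 (-0.37), Rps9 (-0.39) and Rps24 (-0.40). Those of the 60S genes were Rpl26 (-0.31), Rpl18 (-0.42), Rpl30 (-0.42) and Rpl41 (-0.45). Rps14 still had separate groups, with 1416, 1401 and 1543 CPM in P/D and 1131, 1111 and 1177 in RS. Rpl41, the 60S gene with most reads, had 2275, 1879 and 2293 CPM in P/D and 1513, 1499 and 1697 in RS. Rps20, the 40S gene with most reads, had 2078, 1781 and 1977 against 1390, 1428 and 1259 CPM (log2 fold change -0.51, SE 0.10). The calls of Rps9, Rps18, Rpl26 and Rps27l were lost with DESeq2 (adjusted p = 0.133, 0.0939, 0.0948 and 0.124). Rps9 also lost its call without P/D replicate 1 or RS replicate 1 (adjusted p = 0.109 and 0.0801, edgeR), Rps18 without RS replicate 3 (0.0890), and Rps27l without P/D replicate 1 or RS replicate 2 (0.0563 and 0.0733). With at least 10 reads asked for in every sample, 62 of 72 genes were lower, and these 4 genes and Rps14 were among those that missed the threshold. With this filter the log2 fold changes of all shared genes moved up by a median of 0.16, and those of Rpl26, Rps14, Rps18, Rps9 and Rps27l became -0.15, -0.20, -0.21, -0.23 and -0.34. Rps26 and Rps10, named for that reason, lost their calls with DESeq2 too, and Rps26 also without P/D replicate 1 or 3 or RS replicate 1 or 2.

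The 4 genes without a significant decrease, named after their values were seen, were Rps13, Rps27, Rpl3 and Rpl6. Rpl3, which lies at the peptidyl transferase centre, had 189, 249 and 262 CPM in P/D and 173, 200 and 177 in RS (log2 fold change -0.34, adjusted p = 0.0806, edgeR). Rpl6 had 335, 327 and 408 against 259, 351 and 235 CPM (-0.32, adjusted p = 0.0693, edgeR). In both genes the groups overlapped. Rps13 was the least even gene among P/D samples, with 123, 131 and 253 reads in P/D and 160, 221 and 243 in RS, while its processed copy Rps13-ps1 on chromosome 8 had 125, 200 and 83 reads in P/D and 94, 187 and 49 in RS. The copy had its fewest reads in replicate 3 of each cell type, where the parent had most. With reads of pseudogenes and retrocopies added to their parents, Rps13 passed the threshold, and so did Rps27, which then fell by 0.55 (adjusted p = 8.96e-06, edgeR). In that fit 72 of 74 genes were lower. Rps27 by itself had 448, 324 and 469 CPM in P/D and 309, 261 and 428 in RS (log2 fold change -0.32, adjusted p = 0.0669, edgeR). It also passed the threshold without P/D replicate 2 (adjusted p = 0.0146) or RS replicate 3 (adjusted p = 0.0101), and under a replicate block (adjusted p = 0.0340, edgeR). Without RS replicate 2 its log2 fold change was only -0.12, the smallest with 1 sample left out. Rpl6 passed under the block and without RS replicate 2, Rpl3 passed without P/D replicate 1, and with scaling by total reads alone Rps27, Rpl3 and Rpl6 all did. Its paralog Rps27l, the 40S gene with fewest reads, had 272, 229 and 277 CPM in P/D and 179, 166 and 208 in RS (log2 fold change -0.49, adjusted p = 0.0101, edgeR).

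The genes of the 60S stalk, which recruits translation factors, all fell, and differences between them were not tested. Rplp0, the base of the stalk, had 2095, 2223 and 2231 CPM in P/D and 1370, 1126 and 1544 in RS (log2 fold change -0.70, SE 0.10). Rplp1 had 1177, 907 and 1231 CPM in P/D and 518, 553 and 679 in RS (-0.92, SE 0.12). Rplp2 had 549, 419 and 681 against 401, 351 and 379 CPM (-0.54, SE 0.14, and -0.35 without P/D replicate 3). The groups of samples were separate in all 3 stalk genes. Rpsa, the 40S protein also known as the laminin receptor, had 423, 416 and 435 CPM in P/D and 269, 263 and 300 in RS (-0.62, SE 0.14).

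Within genes, single contigs could go the other way. Of 157 contigs, 123 were tested apart, of which 87 were lower and 3 higher in RS, where 30.8% of all contigs tested were lower and 32.6% higher (edgeR by contig). The 3 were named after their values were seen. In Rpl26, which encodes a protein near the 60S exit tunnel, the contig ENSMUST00000167436 (chromosome 11, 68901635 to 68904533) had 21, 19 and 27 reads in P/D and 39, 62 and 55 in RS (log2 fold change 0.78, SE 0.24, adjusted p = 0.00411, edgeR). The main Rpl26 contig had 296, 355 and 318 against 262, 400 and 302 reads and fell by 0.45 on the log2 scale. The other 2 are annotated as retained introns. ENSMUST00000215610 of Rps25 had 9, 11 and 8 reads in P/D and 25, 28 and 18 in RS (0.90, SE 0.33, adjusted p = 0.0154, edgeR), and ENSMUST00000206963 of Rps13 had 11, 21 and 13 against 22, 46 and 31 (0.69, SE 0.28, adjusted p = 0.0285, edgeR). The latter had a mean tail of 150.8 nt in P/D already, where the main Rps13 contig had 82.4 nt. Tails were longer in RS on 121 of the 129 contigs tested for them and shorter on 0 (limma), also at an unadjusted p below 0.05, where 54.2% and 1.69% of all contigs tested were.

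Ribosomal protein transcripts carried much longer tails in RS. Over all ribosomal protein reads the mean tail was 81.4, 82.9 and 81.9 nt in P/D and 136.0, 136.3 and 139.1 nt in RS, or 82.1 ± 0.755 against 137.1 ± 1.68 nt (SD, n = 3 each). The difference of 55.05 nt was far larger than the spread between replicates. All other annotated reads went from 109.3 ± 1.48 to 155.3 ± 2.74 nt, by 46.0 nt. Ribosomal protein tails were shorter than those of other reads in every sample, by 25.7 to 29.6 nt in P/D and by 16.3 to 19.3 nt in RS. The 60S reads had shorter tails than 40S reads in each P/D sample, by 3.53, 1.72 and 1.66 nt, and longer tails in each RS sample, by 4.18, 3.07 and 4.03 nt. No test was made on these sums.

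The distribution over single reads had a different mode in each cell type. In each P/D sample the fullest 15 nt bin of ribosomal protein reads was that of 45 to 60 nt, and in each RS sample that of 150 to 165 nt. Reads with tails of 30 to 120 nt went from 76.1% ± 1.51 to 33.7% ± 1.15, and those of 120 to 210 nt from 16.7% ± 0.963 to 62.1% ± 1.03 (SD, n = 3 each). Other reads had 30.4% ± 0.936 in the longer class in P/D and 67.6% ± 1.01 in RS. Ribosomal protein reads with less than 30 nt made up 5.58% ± 0.584 in P/D, where they were 2.72% ± 0.610 of other reads, and 0.359% ± 0.111 in RS.

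**Figure D3:**
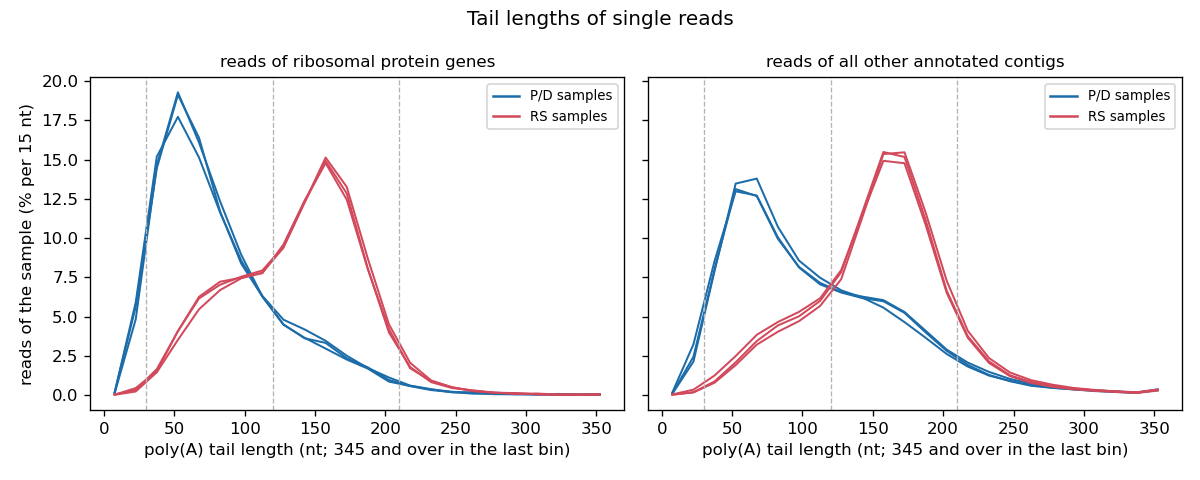
Distribution of poly(A) tail lengths of single reads, as % of the reads of a sample per 15 nt, for ribosomal protein genes (left) and all other annotated contigs (right). Each line is 1 sample, P/D in blue and RS in red, and dashed lines mark 30, 120 and 210 nt; ribosomal protein reads peak at 45 to 60 nt in every P/D sample and at 150 to 165 nt in every RS sample.

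Of 74 ribosomal protein genes tested, 72 had significantly longer tails in RS (limma on mean tail lengths, threshold 0.05 after adjustment over 5370 genes), where 54.9% of all genes tested did. None had shorter tails, also at an unadjusted p below 0.05, against 2.14% of all genes. The median difference was 51.7 nt over the 31 genes of the 40S and 56.7 nt over the 43 of the 60S subunit, and 35.0 nt over all genes. In 73 of the 74 genes every RS sample lay above every P/D sample, which held for 62.3% of all genes with a mean in every sample. Rpl14 was the exception, with 67.2, 65.9 and 74.8 nt in P/D and 74.8, 136 and 91.2 nt in RS from 9, 9 and 4 reads (adjusted p = 0.138, limma). Rpl10a had 99.7, 91.1 and 109 against 111, 127 and 114 nt (adjusted p = 0.0934, limma). These 2 genes without a significant difference were also those with fewest RS reads.

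Among ribosomal protein genes with at least 20 reads in every sample, the largest differences were those of Rpl4 and Rps6. Rpl4 had mean tails of 85.6, 87.5 and 93.0 nt in P/D and 177, 176 and 175 nt in RS, a difference of 87.4 nt (SE 4.82, adjusted p = 0.000247, limma). Rps6, the 40S protein phosphorylated by S6 kinases, had 71.1, 74.0 and 70.5 nt in P/D and 158, 154 and 154 nt in RS, a difference of 83.5 nt (SE 4.63). In both genes RS samples lay within 4 nt of each other. Other large 40S differences were those of Rps2 and Rps9, at 73.6 and 72.0 nt. The other large 60S differences were those of Rpl35, Rpl24 and Rpl11, at 80.3, 76.2 and 75.7 nt. Rpl22, named after its values were seen and with 17 to 55 reads in a sample, had the lowest P/D tail of a tested 60S gene, at 59.6, 60.05 and 56.5 nt, and 146, 147 and 138 nt in RS.

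The smallest significant differences had the same sign but stood clearly below. Rps27 had 91.6, 98.6 and 90.8 nt in P/D and 113, 116 and 115 nt in RS (20.8 nt, SE 4.91, adjusted p = 0.0119, limma). With medians of reads, Rps27 missed the threshold (18.8 nt, adjusted p = 0.0530, limma). Rpl27 had 69.9, 73.2 and 75.3 nt in P/D and 95.1, 88.9 and 94.7 nt in RS (20.1 nt, SE 4.88, adjusted p = 0.0134, limma), and missed the threshold without RS replicate 1 (adjusted p = 0.0504). Rps14 had 77.0, 80.5 and 76.7 nt against 102, 101 and 101 nt (23.3 nt, SE 4.54). In all 3 genes the groups did not overlap. Rps19, which is mutated in Diamond-Blackfan anaemia, had the shortest tails of the 74 genes in both cell types, with 54.9, 55.8 and 64.9 nt in P/D and 94.7, 82.5 and 91.5 nt in RS (31.0 nt, SE 5.93). Rps3 followed with 27.6 nt, and among 60S genes Rpl7, Rpl15 and Rpl34 with 32.3, 34.5 and 35.4 nt. Only 18.3% of the RS reads of Rpl27 and 22.6% of those of Rps19 had 120 to 210 nt, where 80.4% of Rpl4 reads did.

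**Figure D4:**
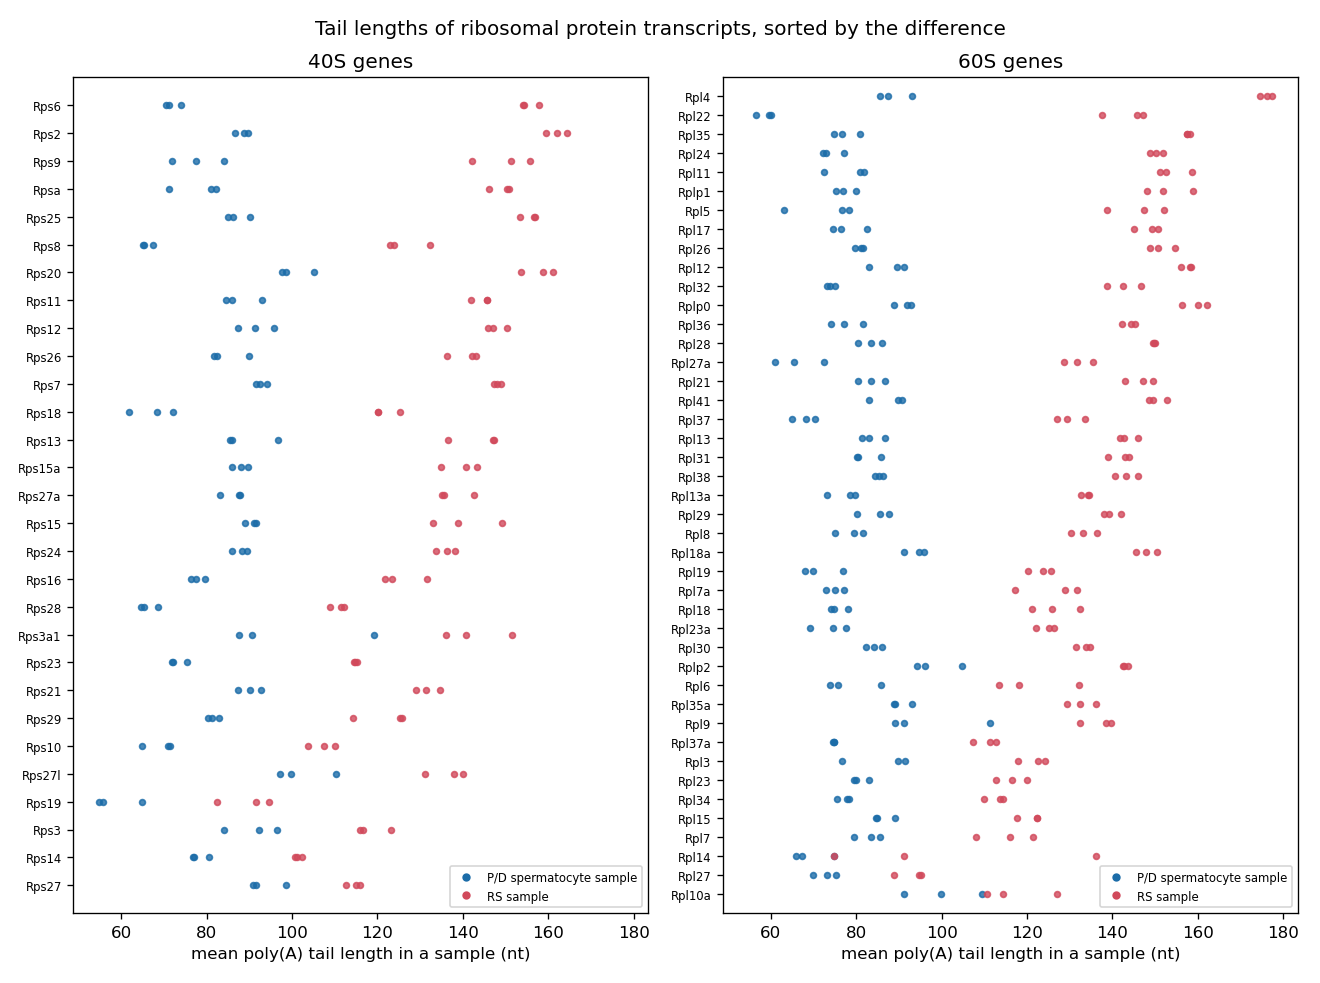
Mean poly(A) tail length (nt) of 72 of the 74 tested genes, 40S (left) and 60S (right), in each of the 3 P/D (blue) and 3 RS (red) samples, sorted by the difference. RS points lie to the right of P/D points in all genes drawn but Rpl14, and the difference of the means runs from 17.2 nt in Rpl10a to 87.4 nt in Rpl4.

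In nt, tails varied more between genes in RS. The tails were also longer there, with a median over the 74 genes of 81.1 nt in P/D and 138.7 nt in RS. Spread relative to length was not compared. The SD of the mean tail between the 74 genes was 9.64 nt in P/D and 17.3 nt in RS, where the median SD between replicates of a gene was 3.14 and 3.01 nt. Means ran from 58.5 to 102.3 nt in P/D and from 89.6 to 176.1 nt in RS. Across the 74 genes the tail in P/D and the tail in RS had a Spearman correlation of 0.32 (Pearson 0.37), and the change in reads and the change in tails one of -0.06 (Pearson 0.21). These are descriptions over genes that share the same libraries and are not independent replicates. All 74 genes had P/D tails below 115.7 nt, the median of the other genes, and 71 had RS tails below their median of 157.9 nt. Ribosomal protein transcripts are short, with a median length of 834 nt. With at least 20 reads in every sample, 71 ribosomal protein genes had median tails of 81.5 nt in P/D and 139.6 nt in RS, with a median difference of 54.4 nt. Among transcripts of 583 to 1108 nt, the middle of their length range, 34 of these had medians of 79.0 and 140.1 nt, against 102.3 and 152.3 nt for 296 other genes. The median difference in this range was 55.4 nt for the former and 47.6 nt for the latter.

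Because most transcripts had longer tails in RS, the tails were also tested after the median of all genes, which rose by 43.0 nt, was subtracted in each sample. On this relative scale 27 ribosomal protein genes were significantly longer in RS, where 14.0% of all genes were, and 3 were shorter, where 23.5% of all genes were (limma). The 27 comprised 7 of the 40S and 20 of the 60S subunit, led by Rpl4 (44.4 nt above the shift of the medians, SE 5.50, adjusted p = 0.00468, limma), Rpl22 (41.7 nt) and Rps6 (40.5 nt). The 3 were Rpl27, Rps27 and Rps14, at -22.9, -22.2 and -19.7 nt. These counts depended on few samples and on the read filter. Without RS replicate 1 they were 16 and 0, without RS replicate 2 they were 15 and 2, without RS replicate 3 they were 19 and 0, and under a replicate block they were 14 and 0. The 2 genes shorter without RS replicate 2 were Rpl10a and Rpl14. With at least 20 reads asked for in every sample, 24 were longer and 13 shorter. The median subtracted is then that of genes with more reads, and it rose further between P/D and RS. For Rpl39l the relative difference went from -60.7 to -68.3 nt, while its own tail difference stayed at -17.7 nt. Shares over all genes are not given for these alternatives.

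Of the X-linked genes, Rpl10 and Rpl39 were the members that did not pass the filters. Rpl10 (X chromosome, 74270812 to 74273135) had 0 reads in each P/D sample and 2, 1 and 1 in RS, and Rpl39, the 60S gene with fewest reads, had 1 read in P/D replicate 3 and 1 in RS replicate 2. Rps4x was listed with 0 reads in all samples and, without a symbol in the tail table, was not a member. A count of 0 over the 3 P/D samples allows up to 3 reads, or 3.65 CPM, and over the 3 RS samples 2.61 CPM, per total reads. These limits cover counting error only. Rpl36a was not analysed here.

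The autosomal paralogs of these X-linked genes were well measured. Rpl10l (chromosome 12, 1 exon) had 171, 191 and 178 reads in P/D and 217, 282 and 241 in RS. Its level was 675 ± 46.3 CPM in P/D and 697 ± 55.1 in RS (log2 fold change 0.04, SE 0.12, adjusted p = 0.759, edgeR). Rpl39l had 1466, 1381 and 1512 CPM in P/D and 1347, 1423 and 1409 in RS (-0.06, SE 0.10, adjusted p = 0.605, edgeR). Rps4l had 62, 61 and 58 reads in P/D and 63, 97 and 77 in RS (-0.03, SE 0.17, adjusted p = 0.876, edgeR). No difference was detected in these 3 genes. Rpl36al, the copy of Rpl36a, had 566, 543 and 496 CPM in P/D and 309, 330 and 348 in RS and fell by 0.70 (adjusted p = 7.58e-06, edgeR).

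In tails, these 3 paralogs had values unlike most members. Rpl39l had 107, 100 and 102 nt in P/D and 83.6, 85.7 and 86.4 nt in RS, 17.7 nt shorter in RS (SE 4.75, adjusted p = 0.0195, limma), which passed the threshold in 10 of 14 settings. It was missed with medians of reads, under a replicate block and without RS replicate 1 or 2 (adjusted p = 0.0652, 0.0668, 0.0666 and 0.0521). Rps4l had 109, 80.5 and 106 nt against 80.2, 76.2 and 83.8 nt (adjusted p = 0.123, limma), and Rpl10l 104, 100 and 114 nt against 115, 113 and 121 nt (adjusted p = 0.191, limma). Relative to the sample medians, tails of Rps4l, Rpl39l and Rpl10l were shorter in RS by 61.5, 60.7 and 33.0 nt (adjusted p = 0.00514, 0.00350 and 0.00951, limma), and each passed the threshold in all 14 settings tried. Rpl36al, by contrast, went from 79.0, 77.0 and 83.6 to 118, 122 and 114 nt. Of the other listed paralogs, Rpl22l1 did not differ detectably in reads (log2 fold change -0.08, adjusted p = 0.629) and had tails longer by 45.8 nt, Rpl7l1 was not tested for reads and had tails longer by 53.8 nt from 3 to 14 reads a sample, the retrocopy Rpl37rt had a log2 fold change of 0.08 (adjusted p = 0.764) and tails longer by 64.6 nt, and Rps27rt fell by 0.70 with tails longer by 19.99 nt. The tail call of Rpl7l1 passed in 7 of 11 settings, with 29.4 nt (adjusted p = 0.285, limma) for tails of 10 to 300 nt, and missed without RS replicate 1 (adjusted p = 0.0608). That of Rps27rt passed in 11 of 14 and missed without P/D replicate 1, RS replicate 2 or RS replicate 3 (adjusted p = 0.0582, 0.0800 and 0.0749).

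**Figure D5:**
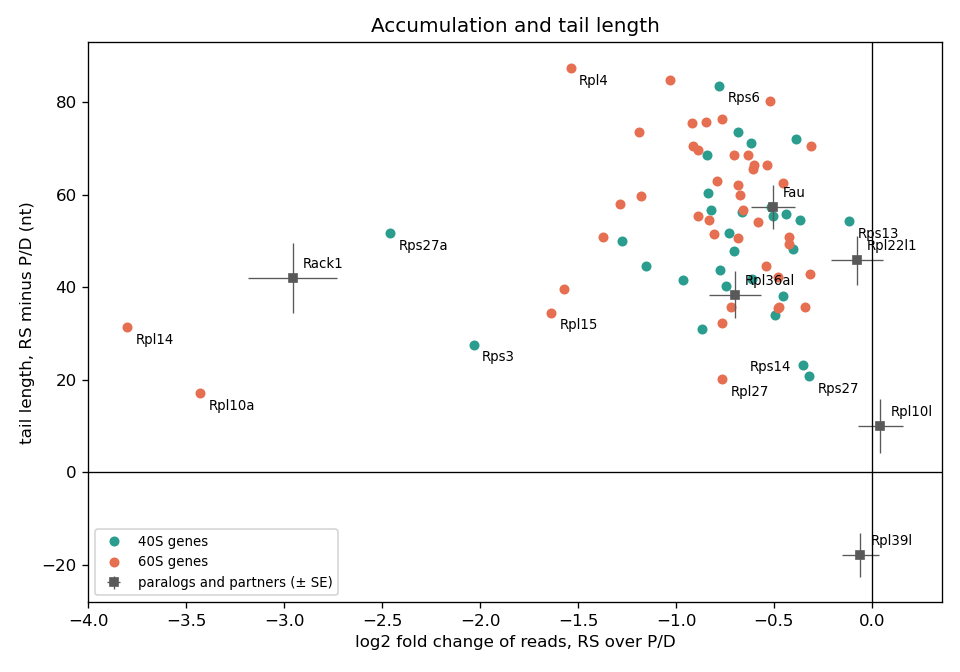
Log2 fold change of reads (x axis, RS over P/D) against the difference in mean tail length (y axis, nt, RS minus P/D) for 72 of the 74 ribosomal protein genes tested, 40S in green and 60S in orange, and for 6 related genes (grey squares with standard errors). Rpl39l lies below 0 on the tail axis at -17.7 nt, Rpl10l at 10.05 nt and Rack1 far to the left at -2.96.

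Partners of the 40S subunit that are not named Rpl or Rps were lower in RS as well. Rack1, a scaffold protein on the 40S head, had 293, 278 and 285 against 39.8, 36.0 and 33.6 CPM, 7.77-fold lower (adjusted p = 2.25e-17, edgeR). Fau, a fusion of a ubiquitin-like protein with a 40S protein, had 993, 897 and 1123 CPM in P/D and 747, 724 and 648 in RS (-0.50, SE 0.11). The groups of samples were separate in both. Tails were longer in RS in both, by 41.9 and 57.4 nt.

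Related lists were counted in the same way. Mitochondrial ribosomal protein genes, whose products serve the organelle's own ribosomes, had a median log2 fold change of -0.77, but a wider range, from -3.24 to 2.59, than that of the cytosolic genes. Of 55 tested, 37 (67.3%) were lower and 6 higher in RS, against 32.6% and 33.9% of all genes, where no cytosolic ribosomal protein gene was higher. Of 57 tested for tails, 43 had longer and 1 shorter tails, with a median difference of 56.2 nt, where 54.9% and 2.14% of all genes did. Of 23 ribosome biogenesis genes, 15 were lower with edgeR (median -0.78) and 9 with DESeq2, where 32.6% and 22.3% of all genes tested with edgeR were. Among the 15 were Gnl2 (-2.51), Bysl (-1.57), Eif6 (-1.45) and Pes1 (-1.34). Of 22 tested for tails, 12 had longer tails, a share near the 54.9% of all genes. None was higher with edgeR or DESeq2, also at an unadjusted p below 0.05. Other genes known for TOP mRNAs, mainly translation factors and including Rack1, were mixed, with 11 of 23 lower and 5 higher (median -0.29), where 32.6% of all genes were lower and 33.9% higher. Eef1b2 fell by 1.29 and Eef1a1 by 0.64, whereas Eef1d rose by 1.51 and Naca by 0.60. Tails were longer in 21 of 25 of them, and in 54.9% of all genes.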

How the data were processed

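The authors basecalled and demultiplexed direct RNA reads, aligned them with minimap2 (2.20-r1061 in the submitters' processing notes) to GENCODE transcripts of GRCm38, kept tails that passed Nanopolish, and deposited the raw number of reads, as counts, for each contig. A second deposited table holds another value, the tail length of each read in nt. Counts equalled the reads in that table for every contig and sample. A read was counted on a contig, so reads of near-identical copies can be divided between them, and 37 reads of ribosomal protein genes were also listed on another gene.

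Annotation came from GENCODE vM21 on the same build. Counts were summed over the contigs of a symbol and tested with edgeR 4.0.16 (TMM, filterByExpr, quasi-likelihood) in R 4.3.3. CPM values are TMM-scaled. Mean tails per gene and sample were tested with limma 3.58.1, where a cell type had 2 or more replicates with 10 or more reads and both cell types had means in 2 or more. Both tests ran over all annotated genes, with Benjamini-Hochberg adjustment and a threshold of 0.05, and were checked on simulated data. Samples were grouped by labelled cell type. The p-values measure the spread between 3 pools per cell type. Depth was 244004 to 474688 reads per sample, and a gene near 10 reads per sample has an uncertain mean tail.

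Named genes were, per subunit and for reads and tails apart, the 4 highest and 4 lowest significant differences among genes with 20 or more reads in each sample, the genes with most and fewest reads, X-linked genes, stalk genes, Rpsa, Rps27, Rps27l, Rpl5, Rpl11, genes not passing a filter, and the listed paralogs and partners. A few genes that the rule names are not reported here. Other genes were named after their values were seen, including the examples from the related lists. The members and lists were chosen with earlier results of these data known. Alternatives were other scaling and filters, DESeq2 1.42.0, medians, log2 tails, tails of 10 to 300 nt, the methods' test, contigs in place of genes, a replicate block and leaving out each sample. The addition of pseudogene reads was chosen after the data were seen. Python 3.11.15 with pandas 2.3.3 and matplotlib 3.10.9 was used.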

Additional observations from a re-analysis of the deposited data

How the results depend on the processing

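The numbers of genes lower in RS (62 to 73 over the alternatives, 68 to 71 without 1 sample) and with longer tails (71 or 72) stayed within 1.5 times those reported. Relative to the sample medians, 48 genes were longer and 0 shorter on a log2 scale, 13 were shorter when each sample needed 20 reads, and 8 with the unadjusted methods' test. Leaving out 1 sample gave 15 to 26 longer and 0 to 4 shorter. The difference in mean tail was 53.6 nt with equal weight of genes and 73.6 nt for medians of reads, and 54.1 to 55.6 nt without 1 sample. The difference in reads with 120 to 210 nt was 43.3 percentage points with equal weight of genes, 35.5 with bounds of 120 and 180 nt, and 44.7 to 45.9 without 1 sample. The 60S to 40S ratio differed by -0.0179 between RS and P/D, but by 0.0157 with further ribosomal genes such as Fau and Rack1 added, and -0.0333 to -0.00633 without 1 sample. Without 1 sample the difference in read share was -2.89 to -2.49 percentage points, -1.16 to -0.979 for 40S and -1.73 to -1.51 for 60S. The cause of these shifts was not tested.

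With the replicate block, 72 genes were lower in RS, 72 had longer tails, and 14 were longer and 0 shorter relative to the sample medians. Deviations from the group means of same-numbered samples had correlations of 0.068, 0.261 and 0.068 in reads and -0.004, 0.104 and -0.006 in tails over 1878 genes. In reads, P/D replicate 3 with RS replicate 1 had 0.101, and P/D replicate 1 with RS replicate 3 had 0.093. Unmatched pairs that included a replicate 2 had -0.152 to -0.140. In tails, unmatched pairs ranged from -0.088 to 0.084. Not every correlation of same-numbered samples was above 0.1, and the sources do not say which pools hold the same mice. The replicate numbers were therefore not taken as pairs. Genes with few RS reads, such as Rpl14 and Rpl10a, limit what can be said of their tails.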
